A study of Macaca mulatta with 2 samples.

Results

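Genes that mark primordial germ cells, gonocytes and spermatogonia were examined in cultured Sertoli cells of the rhesus macaque, to see which of their transcripts were detected in each culture and how far the signals differed. The members were 34 gene symbols chosen by name, and a probe belonged to the set where its gene name on the array was one of them. Of these, 33 were on the array, with 55 probes among 21509 gene names, and DAZ1 had no probe under that name. The pubertal culture came from males of 18 to 22 months that had received gonadotropin-releasing hormone through an indwelling catheter, as pulses of 2 min at 0.15 µg/min given at intervals of 3 h over 4 to 5 weeks, which brought on puberty. The infant culture came from testes of males under 3 months old, with no such treatment named. Both were primary Sertoli cell cultures, kept for 12 h with follicle-stimulating hormone at 5 ng/ml and with testosterone at 100 nM. Each group had 1 one-colour array, so there was no replicate and no difference below carries a test. The labels used here do not say how many animals were pooled. Age, hormone pulses, animal and culture cannot be told apart in this design.

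Sertoli cells line the seminiferous tubule and surround the germ cells, and a preparation of them can carry germ cells along. Primordial germ cells switch on pluripotency factors and RNA-binding proteins such as DAZL and NANOS3, and settle in the testis as gonocytes. In the infant these become spermatogonia, which keep themselves up through the receptors RET, GFRA1 and FGFR3 for ligands that Sertoli cells secrete. Retinoic acid and the factors SOHLH1 and SOHLH2 then move them toward KIT expression and meiosis, which STRA8 helps to open.

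Signals are spot intensities after the scanner software's background subtraction. Detection means that the software marked the spot as well above background, and the lowest signal so marked was 20.8 intensity units on the pubertal array, against 18.5 on the infant array. Signals are given before the arrays are scaled to each other. Differences are log2 values, pubertal minus infant, after each array was scaled to its 75th percentile. The error beside a difference comes from the scanner software's own estimate for each spot and covers neither animal nor culture. For a gene with several probes, the errors were combined as if the probes were independent. Where probes overlap or disagree, such an error and its interval are too narrow. For a gene detected on 1 array, the difference is a lower bound, taken against the lowest detected signal of the other array or the probe's own signal there, whichever was higher. Where several probes of such a gene were detected, their bounds were averaged in log2. On the pubertal array 54.9% of gene spots were detected, against 54.8% on the infant array. All 18 Sertoli cell markers on the array were detected on both, among them SOX9, WT1, GATA4 and FSHR. Of these, 5 were at least 2-fold higher in pubertal cells (TF by 3.32, AMH by 3.28, CTSL2 by 2.81, DMRT1 by 2.11 and SOX8 by 1.05) and 2 lower (INHBB at -1.31 and KRT18 at -1.24), and their part in the germ cell values was not tested. The probes are human sequences of 60 bases, so monkey transcripts may bind each one to a different degree. Levels of different probes are therefore not strictly comparable, and the list sums and brightest genes named below carry that limit.

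Some of the probes behind the detection results are shown here as examples, as printed on the array, in lower case from 5′ to 3′. The first 3 belong to genes detected on the pubertal array alone. The other 2 are probes that were detected on neither array, while a second probe of the same gene was detected on the pubertal array.
DDX4 probe 1: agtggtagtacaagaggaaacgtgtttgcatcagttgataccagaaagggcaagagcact
BOLL probe 1: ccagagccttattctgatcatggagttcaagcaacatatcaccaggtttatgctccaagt
SALL4 probe 1: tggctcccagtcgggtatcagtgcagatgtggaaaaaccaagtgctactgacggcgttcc
SOHLH2 probe 2: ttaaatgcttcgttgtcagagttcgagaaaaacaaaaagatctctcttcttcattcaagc
RET probe 2: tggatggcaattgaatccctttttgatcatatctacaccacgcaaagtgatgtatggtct

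Of the 33 genes, 9 were detected on the pubertal array alone, 1 on the infant array alone, 15 on both and 8 on neither. The software's weaker flag asks for a signal positive and significant against background. With it, 3 of the 33 genes were detected on the pubertal array alone, 1 on the infant array alone and 25 on both. Over all 21509 gene names, 17022 were detected on both with that flag, and those detected on 1 array alone were not counted. Over all gene names on the array, by the well-above-background flag, detection on the pubertal array alone was 4.22%, on the infant array alone 3.15%, on both 66.2% and on neither 26.3%. Of the 15 genes detected on both, DAZL, FGFR3, ID4 and NANOS3 (4 genes) were higher in pubertal cells by 2-fold or more, and NANOS1 and UCHL1 (2 genes) were lower by as much. The same shares over all 14243 genes detected on both were 7.32% higher and 6.32% lower. The sign was positive for 11 of the 15, against 45.8% of all genes detected on both. The median difference of the 15 genes was 0.31, against -0.06 for all genes detected on both arrays. RNA of whole cultures cannot tell fewer germ cells from less RNA in each.

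**Figure D1:**
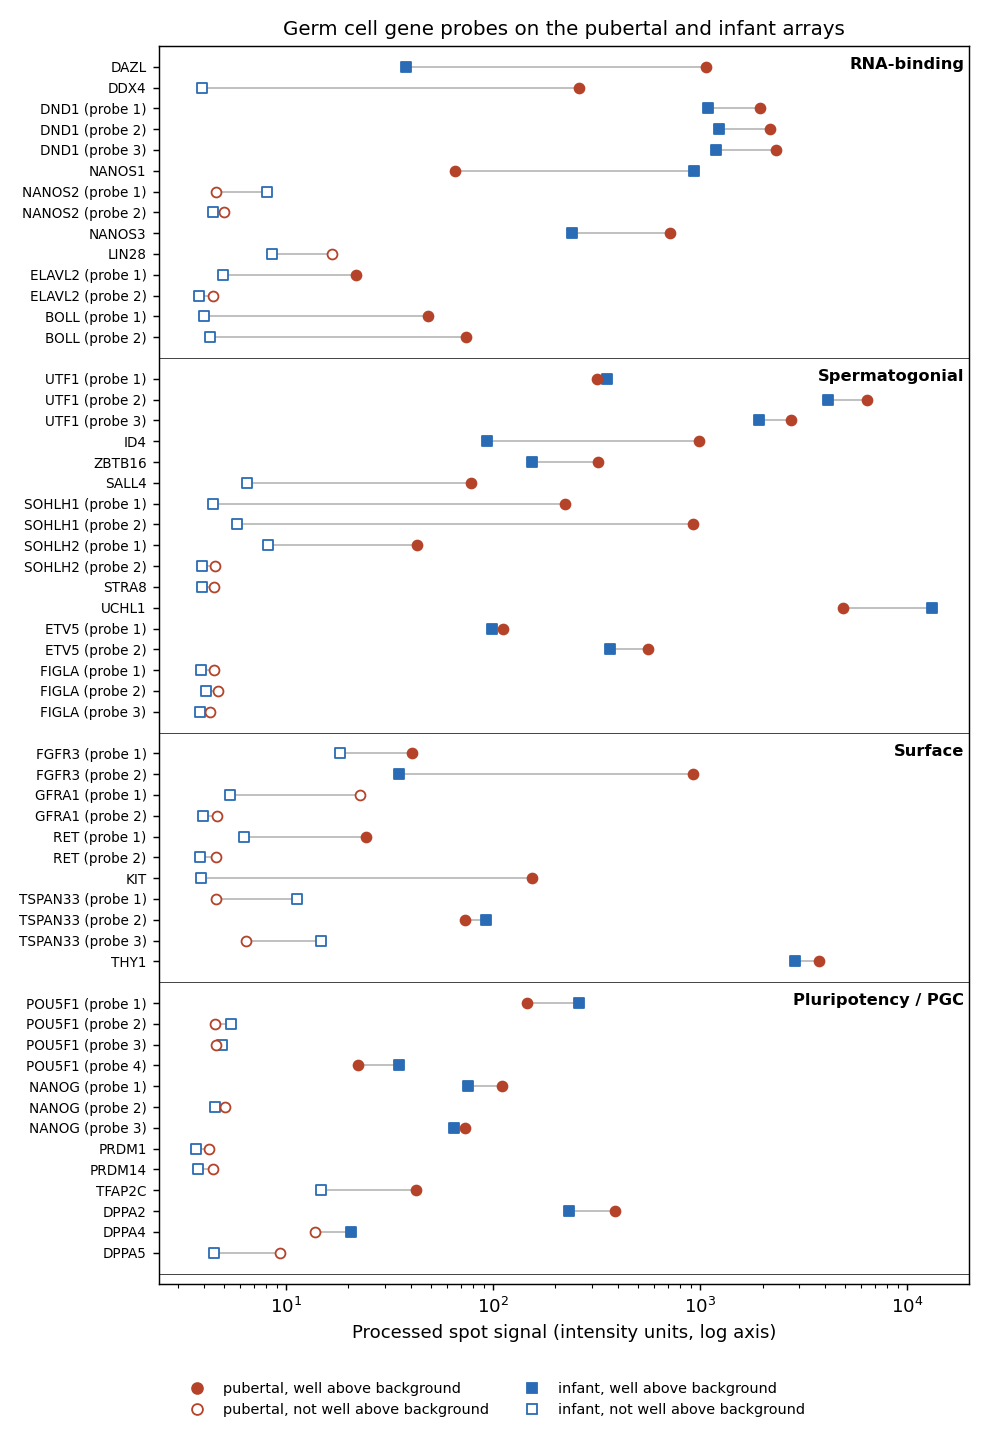
Processed signal of each of the 55 probes on the pubertal array (circles) and the infant array (squares), in intensity units on a log axis, grouped by role. Filled symbols are well above background and open symbols are not. DAZL, DDX4, SOHLH1, KIT and FGFR3 probe 2 have the widest gaps toward the pubertal array, and NANOS1 has the widest toward the infant array.

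Among the 15 genes detected on both arrays, the RNA-binding proteins of the germ line held the highest and the lowest difference, DAZL and NANOS1. DAZL, which binds germ cell messenger RNAs and promotes their translation, had a signal of 1062 in pubertal cells and 37.9 in infant cells. It was higher by 4.72 ± 0.25 (scanner error, 1 array each), or 26.3-fold, and well above background on both. DAZL is the autosomal relative of the Y-linked DAZ genes. DDX4, the RNA helicase of germ granules known as VASA, had a signal of 260.2 in pubertal cells and 3.92 in infant cells. It was at least 13.2-fold higher, or at least 3.99-fold with normexp background correction, and the infant spot lay at the software's floor, where signals have no order.

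BOLL, a member of the DAZ family linked to meiosis, was detected on the pubertal array by both of its probes and on the infant array by neither. Probe 1, printed above, had a signal of 48.7 in pubertal cells and 4.00 in infant cells. Probe 2 had 73.8 in pubertal cells and 4.30 in infant cells. The lower bounds of probes 1 and 2 were 2.48-fold and 3.75-fold. Their mean in log2 was 3.05-fold, or 1.51-fold with normexp correction. The pair of probes thus gave the same detection pattern. ELAVL2, an RNA-binding protein of neurons and gonads, was near the limit, with its probe 1 at 21.7 in pubertal cells and 4.97 in infant cells, and a bound of at least 1.1-fold. Its other probe was detected on neither array.

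The NANOS genes, zinc-finger proteins that repress translation in germ cells, differed in direction. NANOS3, which in mice keeps primordial germ cells alive, had a signal of 711.8 in pubertal cells and 240.0 in infant cells, higher by 1.48 ± 0.21 or 2.79-fold. NANOS1 had a signal of 65.3 in pubertal cells and 933.1 in infant cells. Its difference was -3.92 ± 0.23, which is 15.2-fold lower in the pubertal culture. NANOS2, which in mice maintains male spermatogonial stem cells, was detected on neither array by either of its probes. NANOS1 and NANOS3 each rested on 1 probe.

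DND1, which shields germ cell messenger RNAs from microRNAs, was bright on both arrays. Its 3 probes gave 1954, 2177 and 2313 in pubertal cells, against 1086, 1236 and 1193 in infant cells. The differences were 0.76, 0.73 and 0.87, with a mean of 0.78 ± 0.12, under 2-fold. These probes are not independent, since they overlap by 54 to 59 bases. Probe 1 differs from probe 2 by the substitution G50A, counted from the 5′ end of probe 1, in the following stretches, where the capital marks the changed base.
DND1 probe 1: ggttgtatttatGttaaacccct
DND1 probe 2: ggttgtatttatAttaaacccct

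LIN28, which blocks maturation of let-7 microRNAs, did not reach detection in either culture, with a signal of 16.7 in pubertal cells and 8.54 in infant cells. Neither of the 2 LIN28B probes, looked up after their values were seen, was detected on either array. DAZ2, a near-identical copy of DAZ1, was added after its values were seen. Of the 4 DAZ2 probes, 3 were detected in pubertal cells and 1 in infant cells. The probe detected on both had 89.7 in pubertal cells and 34.5 in infant cells, a difference of 1.29. The strongest of the others had 178.8 in pubertal cells and 11.1 in infant cells. A human DAZ2 probe may not tell the DAZ genes apart.

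**Figure D2:**
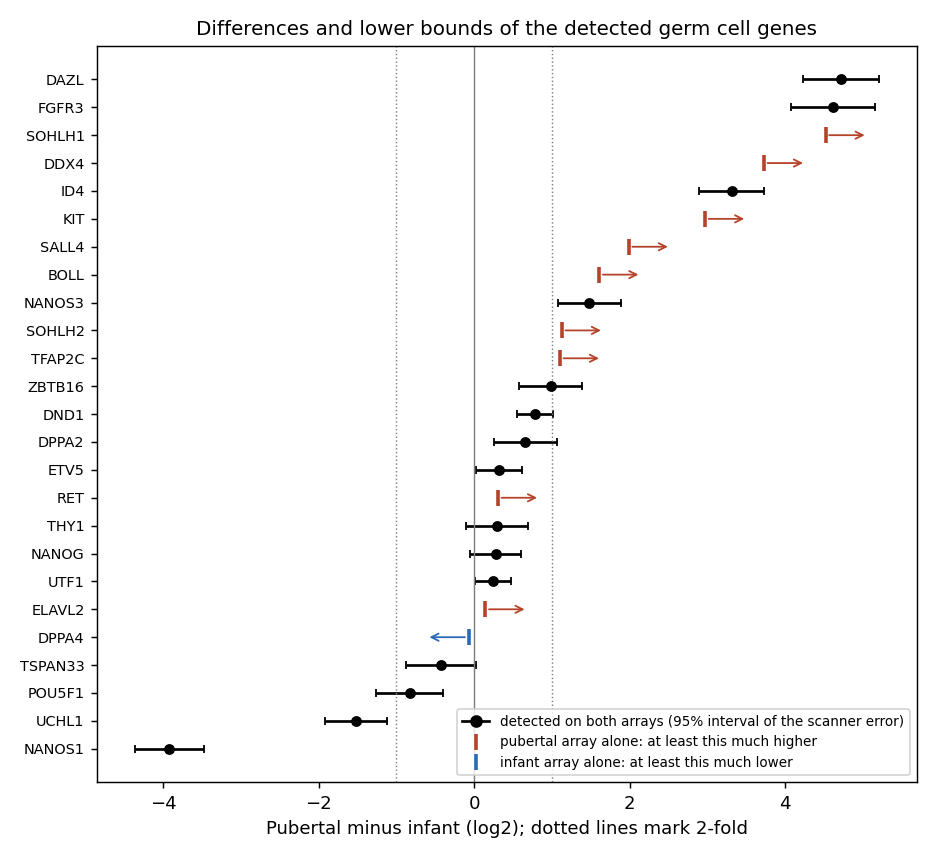
Difference in log2, pubertal minus infant, of the 25 genes detected on at least 1 array. Points with bars are genes detected on both arrays, with the 95% interval of the scanner error, and ticks with arrows are lower bounds of genes detected on 1 array. DAZL at 4.72 and FGFR3 at 4.62 lie at the top, and NANOS1 at -3.92 at the bottom.

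Among regulators of the spermatogonial state, SOHLH1, SOHLH2 and SALL4 were detected on the pubertal array alone, STRA8 and FIGLA on neither, and the 5 others on both, with ID4 higher by 2-fold or more and UCHL1 lower by as much. SOHLH1, a helix-loop-helix factor that mice need for spermatogonial differentiation, had signals of 221.2 and 918.0 with its 2 probes in pubertal cells, against 4.43 and 5.80 in infant cells. Neither infant spot was well above background. The lower bounds of probes 1 and 2 were 11.2-fold and 46.7-fold. Their mean in log2 was 22.9-fold, or 6.48-fold with normexp correction. By this mean, SOHLH1 had the largest bound of the 9 genes detected on the pubertal array alone. Its partner SOHLH2 had a signal of 42.9 in pubertal cells and 8.15 in infant cells with probe 1, at least 2.18-fold higher, or at least 1.28-fold with normexp correction. Its probe 2, printed above, was detected on neither. STRA8, the retinoic acid-induced gatekeeper of meiosis, was not detected, with 4.48 in pubertal cells and 3.91 in infant cells. FIGLA, a helix-loop-helix factor known from oocytes, was detected by none of its 3 probes on either array.

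ID4, a helix-loop-helix inhibitor that marks spermatogonial stem cells in mice, had a signal of 982.5 in pubertal cells and 93.1 in infant cells. It was higher by 3.31 ± 0.21, or 9.92-fold. SALL4, a zinc-finger factor of undifferentiated germ cells, had 78.0 in pubertal cells and 6.46 in infant cells, at least 3.96-fold higher, or at least 1.75-fold with normexp correction. Both genes rested on 1 probe. ZBTB16, also called PLZF, a repressor that mice need for stem cell renewal, had 322.3 in pubertal cells and 153.3 in infant cells. At 0.98 ± 0.21 it lay just under 2-fold, which with loess normalization or with the percentile taken over detected probes it passed.

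ETV5, a target of GDNF signalling in mouse spermatogonia, differed little. Its probes gave 111.6 and 561.8 in pubertal cells, against 98.5 and 364.7 in infant cells, with a mean difference of 0.31 ± 0.15. UTF1, a chromatin protein of embryonic stem cells and spermatogonia, was bright in both cultures and its probes disagreed. Probe 1 gave 318.6 in pubertal cells and 352.8 in infant cells, a difference of -0.24, whereas probe 2 gave 6382 in pubertal cells and 4125 in infant cells, a difference of 0.54. Probes 2 and 3 overlap by 59 bases, and the mean of all 3 was 0.24 ± 0.12. That error leaves out the disagreement between the probes.

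UCHL1, a ubiquitin hydrolase abundant in spermatogonia and neurons, was lower in pubertal cells. It gave 4874 in pubertal cells and 13118 in infant cells, and a difference of -1.52 ± 0.20, or 2.86-fold lower. With NANOS1 it was 1 of the 2 genes at least 2-fold lower.

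Of the surface receptors, FGFR3 and KIT stood out toward the pubertal array, and the GDNF receptor pair was near background. FGFR3, a fibroblast growth factor receptor on primate spermatogonia, had a signal of 923.2 in pubertal cells and 35.3 in infant cells with probe 2, higher by 4.62 ± 0.28 or 24.6-fold. Probe 1 gave 40.4 in pubertal cells and 18.2 in infant cells, and its bound was 2.05-fold. Both probes were brighter on the pubertal array and differed in size, and averaging the pair without the detection filter gave a difference of 2.84. KIT, the receptor for KIT ligand on differentiating spermatogonia, also known from Leydig and mast cells, had 154.0 in pubertal cells and 3.90 in infant cells. It was at least 7.83-fold higher, or at least 2.69-fold with normexp correction, and the infant spot lay at the floor.

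RET, the signalling part of the GDNF receptor, had 24.3 in pubertal cells and 6.30 in infant cells with probe 1, at least 1.24-fold higher. That spot lay in an area of the array where neighbouring spots differed alike, and without such spots RET was detected on neither array. Its probe 2, printed above, had 4.60 in pubertal cells and 3.82 in infant cells. GFRA1, the part of the same receptor that binds GDNF, reached 22.7 in pubertal cells and 5.36 in infant cells with probe 1, neither of them well above background. Both parts of the GDNF receptor were thus measured close to or below the detection limit.

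THY1, a surface glycoprotein used to enrich mouse spermatogonial stem cells and also present on fibroblasts, was bright in both, with 3760 in pubertal cells and 2883 in infant cells. Its difference was 0.29 ± 0.20, with a 95% interval of the scanner error from -0.11 to 0.69. TSPAN33, a tetraspanin known from human spermatogonia, had 72.7 in pubertal cells and 92.2 in infant cells with its 1 detected probe, a difference of -0.43 ± 0.23. Its 2 other probes were not well above background on either array and were also dimmer on the pubertal array. With the median of all probes the difference was -1.29, and the mean without the detection filter was -1.04.

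The pluripotency and primordial germ cell genes had 3 members detected on both arrays, all under 2-fold. POU5F1, the factor OCT4 of pluripotent cells, had 146.4 in pubertal cells and 258.4 in infant cells with probe 1. Probe 4 gave 22.2 in pubertal cells and 35.1 in infant cells. The mean difference was -0.83 ± 0.22, and probes 2 and 3, which overlap by 51 bases, were detected on neither array. POU5F1 has near-identical pseudogenes, and its probes share a run of at least 20 bases with a probe of another name on the array, so the source of the signal is uncertain.

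NANOG, a homeobox factor of pluripotent cells, likewise has pseudogenes. Probe 1 had 110.8 in pubertal cells and 75.6 in infant cells, and probe 3 had 73.3 in pubertal cells and 64.8 in infant cells, with differences of 0.46 and 0.09. These probes overlap by 55 bases and differ by the substitution T31C, counted from the 5′ end of probe 1.
NANOG probe 1: agaaagaggtctTgtatttgctgca
NANOG probe 3: agaaagaggtctCgtatttgctgca
Probe 2, which shares 25 bases with probe 1, had 5.08 in pubertal cells and 4.52 in infant cells and was not detected. The mean of probes 1 and 3 was 0.28 ± 0.17, with an interval from -0.05 to 0.60.

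TFAP2C, a factor of primordial germ cell specification, had 42.2 in pubertal cells and 14.8 in infant cells, at least 2.15-fold higher, or at least 1.25-fold with normexp correction. PRDM1 and PRDM14, which act with it in that step, were near the floor, PRDM1 with 4.22 in pubertal cells and 3.68 in infant cells and PRDM14 with 4.44 in pubertal cells and 3.77 in infant cells. DPPA2, a chromatin-associated protein of pluripotent cells, had 388.7 in pubertal cells and 231.8 in infant cells, a difference of 0.66 ± 0.21. Its partner DPPA4 was the 1 gene detected on the infant array alone, with 13.8 in pubertal cells and 20.6 in infant cells, at least 1.05-fold lower. That value sits at the edge of detection, and with loess normalization or scaling on spike-in control probes no bound was left. DPPA5 was detected on neither, with 9.36 in pubertal cells and 4.47 in infant cells. DPPA3, a gene of the same name series looked up after its values were seen, was higher with all 3 probes, with differences of 1.81, 1.95 and 1.73.

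**Figure D3:**
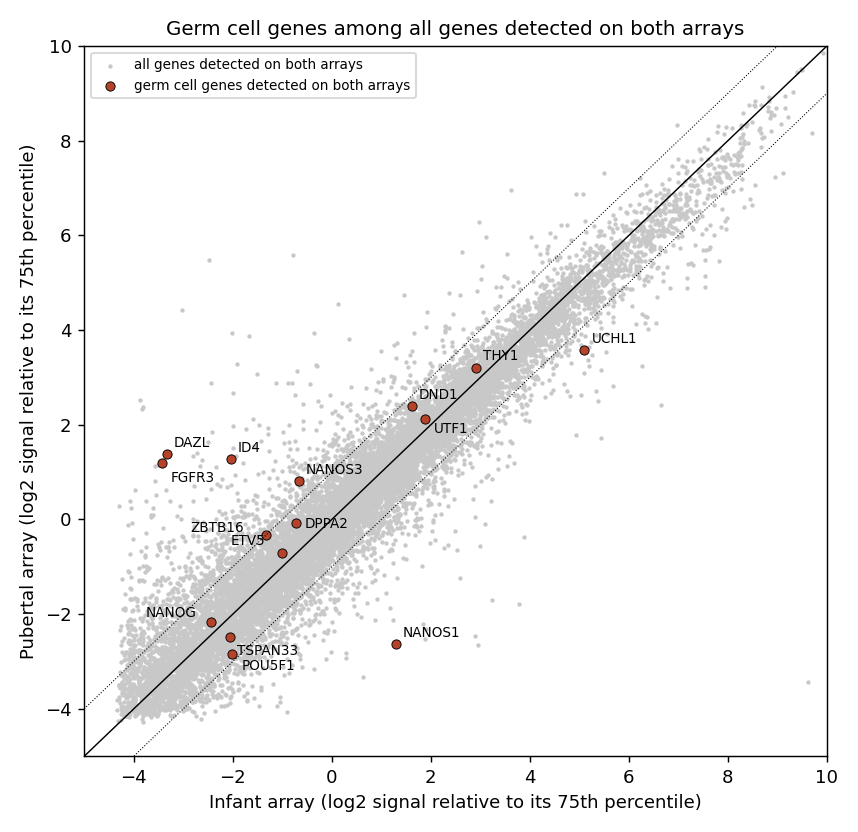
Log2 signal of all 14243 genes detected on both arrays (grey), infant on the horizontal and pubertal on the vertical axis, each relative to the 75th percentile of its array, with the 15 germ cell genes in red. Dotted lines mark 2-fold. DAZL, FGFR3 and ID4 lie far above the band of all genes, NANOS1 far below it, and most other germ cell genes inside it.

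At the bounds, 7 of the 9 genes seen on the pubertal array alone were at least 2-fold higher. These were SOHLH1, DDX4, KIT, SALL4, BOLL, SOHLH2 and TFAP2C, and RET and ELAVL2 were below that. Detection on that array alone largely set the direction of all 9. The same count over the 908 gene names detected there alone was not made. With normexp correction, whose offset of 50 intensity units narrows differences of dim spots, SOHLH1, DDX4 and KIT (3 genes) stayed at 2-fold or more. With scaling on the median or quantile normalization, SOHLH2 and TFAP2C also came below it, which left 5. The 9 genes detected on both arrays that stayed under 2-fold were DND1, UTF1, ZBTB16, POU5F1, NANOG, DPPA2, ETV5, TSPAN33 and THY1. Guanine and cytosine made up 44.2% of the probes detected on both arrays at the median, 43.3% of those detected on the pubertal array alone and 45.0% of those detected on neither. The median over all gene-named probes was 43.3%.

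Other early germ cell genes, from a list of 42 names, were counted in the same way. Of 40 on the array, 9 were detected on the pubertal array alone, 1 on the infant array alone and 24 on both. Of these 24, 11 were higher by 2-fold or more, and the integrin ITGA6 was the 1 gene lower by as much, at -1.25. Their median was 0.79. The cancer/testis gene MAGEC1 was higher by 4.57, the germ cell surface protein TEX101 by 3.48, PRAME by 3.38 and the piRNA pathway gene MAEL by 3.37. PIWIL4, a piRNA-binding protein of foetal and spermatogonial germ cells, was at least 26.7-fold higher and TDRD9, a helicase of the same pathway, at least 23.5-fold higher.

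Ligands, partners and relatives of the members were mostly detected in both cultures. Of 41 on the array, 36 were detected on both, with 5 at least 2-fold higher, 2 lower and a median of -0.17. GDNF, the ligand for GFRA1 and RET, differed by -0.39 and KITLG, the ligand for KIT, by 0.28. Among fibroblast growth factors, FGF9 was higher by 1.34, whereas FGF1 differed by -2.47, FGF18 by -1.47 and FGF2 by -0.80. ID1, a relative of ID4, was higher by 1.33. SALL1, a relative of SALL4, was detected in pubertal cells alone and was at least 2.49-fold higher, and ETV1, a relative of ETV5, at least 1.17-fold.

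Genes of later germ cells were detected in part. Of 20 spermatocyte and spermatid markers on the array, 4 were detected on both arrays, 4 on the pubertal array alone, 1 on the infant array alone and 11 on neither. The meiotic genes SYCP1 and STAG3 were higher by 3.97 and 3.78 and the lactate dehydrogenase LDHC by 2.60. SYCP3, a part of the synaptonemal complex, was at least 34.5-fold higher and HORMAD1, a meiotic chromosome protein, at least 9.0-fold. The sperm head proteins PRM1, PRM2, TNP1 and TNP2 were detected on neither array. CLGN, a chaperone of germ cells, differed by -0.01, and ACR, the sperm protease acrosin, was detected on the infant array alone and was at least 1.29-fold lower.

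Markers of other cells also differed between the cultures, and their part in the germ cell values was not tested. Of 11 macrophage markers, 3 were detected on the pubertal array alone and 6 on both, of which 3 were at least 2-fold higher. The scavenger receptor CD163 was higher by 3.08, the growth factor receptor CSF1R by 2.07 and the leukocyte antigen PTPRC by 1.99, whereas CD68 differed by -0.94 and ITGAM by -0.08. Summed over the list, in units of the 75th percentile, macrophage markers came to 4.85 in pubertal cells and 1.04 in infant cells. The brightest probes set this measure, and CD163 was the brightest macrophage marker in pubertal cells. The 33 spermatogonial and early germ cell genes came to 48.5 in pubertal cells and 56.3 in infant cells, where UCHL1 was the brightest. This sum was lower in pubertal cells although 11 of the 15 differences were positive and 4 negative. Sertoli cell markers came to 790.2 in pubertal cells and 1019.8 in infant cells. Smooth muscle markers came to 171.0 in pubertal cells and 117.2 in infant cells, with 4 of 8 at least 2-fold higher. Leydig cell markers came to 91.1 in pubertal cells and 188.7 in infant cells. Of the 9 detected on both, 3 were at least 2-fold lower (STAR at -4.24, CYP17A1 at -4.21 and CYP11A1 at -1.37), 6 were higher by less than 2-fold, and the median was 0.25. STAR, the brightest of the list in infant cells, had a log2 level of 2.41 in pubertal cells and 6.65 in infant cells.

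Mast cells and Leydig cells can also carry KIT, and their part in its value was not tested. Of 6 mast cell markers on the array, 4 (CPA3, MS4A2, CMA1 and FCER1A) were detected on neither, the tryptase gene TPSB2 differed by 0.14 and HDC, which makes histamine, was at least 2.48-fold higher. The Leydig cell receptor LHCGR was detected on neither array. For THY1, the fibroblast list had a median of -0.53 over 7 genes detected on both, with 1 at least 2-fold higher and 1 lower. LUM, the other fibroblast marker, was detected on the pubertal array alone and was at least 6.73-fold higher.

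**Figure D4:**
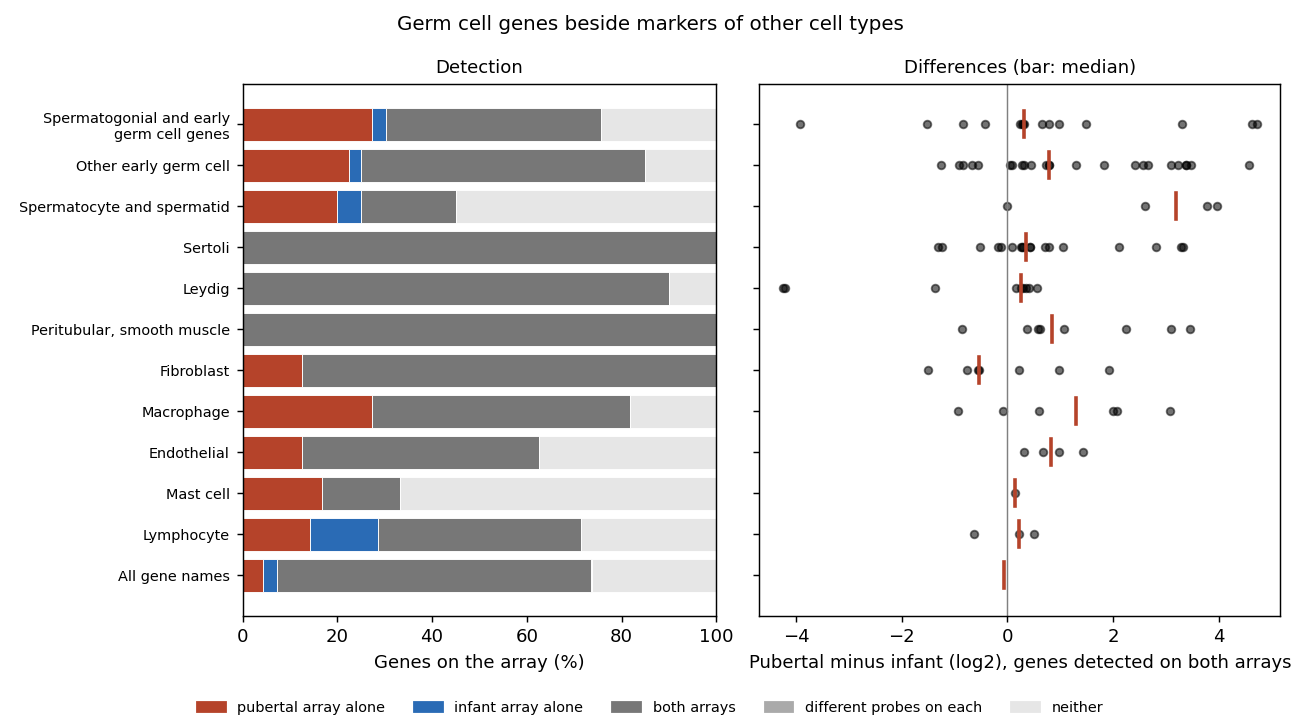
Left, share of genes on the array detected on the pubertal array alone, the infant array alone, both, both but by different probes, or neither, for the germ cell genes, the marker lists and all gene names. Right, log2 differences (pubertal minus infant) of the genes detected on both arrays, with the median as a bar and only the bar for all gene names. The 33 spermatogonial and early germ cell genes have 9 on the pubertal array alone, and the 18 Sertoli cell markers are all detected on both.

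The sign of the genes at least 2-fold different did not change with the processing. All alternatives reused the same 2 arrays, so this is not a repeat measurement. Several of them left the value of a gene with 1 probe as it was. DAZL, FGFR3, ID4 and NANOS3 stayed positive and NANOS1 and UCHL1 negative under each of the 12 alternatives for a difference that gave them a value. DAZL ranged from 3.38 to 5.62, FGFR3 from 2.84 to 5.52 and NANOS1 from -4.09 to -3.02. UCHL1 ranged from -1.68 to -0.62, the last on the scale of the spike-in control probes, where it was under 2-fold. That scale raised every difference by 0.90. POU5F1 and TSPAN33 changed sign there, to 0.07 and 0.47.

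**Figure D5:**
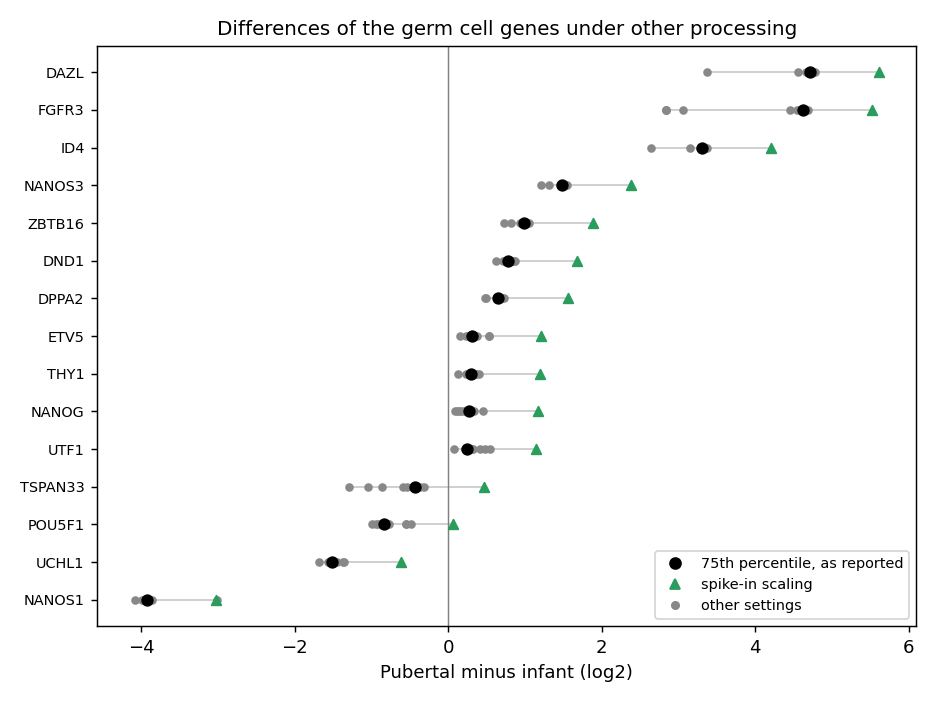
Log2 differences (pubertal minus infant) of the 15 germ cell genes detected on both arrays, as reported (black), with scaling on spike-in probes (green triangles) and under the other settings (grey). The spike-in scale lies 0.90 to the right of the reported value for each gene, and POU5F1 and TSPAN33 cross 0 there.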

How the data were processed

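Messenger RNA was measured on 2 one-colour arrays, 1 pubertal and 1 infant culture, grouped by the sample titles. The deposited values are spot intensity values that the authors made with Agilent Feature Extraction 10.5.1.1. The intensity, per the file headers, had background subtracted and a spatial trend removed, and a surrogate stood in for low values. The headers record no step that scales one array to the other. Detection flags are other values, used as deposited per the file headers. The number of arrays limits the precision.

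The members and all gene lists were chosen with earlier results of these data known. Outlier spots (96 pubertal, 91 infant) and control spots were left out, log2 of the signal minus the 75th percentile of the array (406.7 pubertal, 382.4 infant) was taken, and probes of a gene that were detected on both arrays were averaged. All 55 member probes were single spots, none saturated. Over 27 replicated probes, the SD between spots was 0.12 (pubertal) and 0.10 (infant) in log2 at the median. No test was made, with 1 array per group. Every member is named; from other lists, up to 4 largest differences and 2 largest bounds, and GDNF, KITLG, FGF2 and FGF9 whatever their values. Markers named by detection alone (Leydig, mast and spermatid genes), further marker genes named to show both directions, DAZ2, DPPA3 and LIN28B were chosen after their values were seen. The gene function was tested on simulated data. Python 3.11.15 and limma 3.58.1 were used. Alternatives are given in the closing section. Genomic positions of the probes were not used here. Spot positions on the array served only to find areas where neighbouring spots differed alike.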

Additional observations from a re-analysis of the deposited data

How the results depend on the processing

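The alternatives were 14 changes of background correction, scaling, probe filter, probe summary, detection flag, disturbed spots or fold threshold. With the weaker flag (positive and significant), 25 genes were detected on both arrays, in place of 15. On the pubertal array alone 3 were detected in place of 9, and these 3 were DDX4, KIT and BOLL. Over all gene names, 17022 were detected on both with that flag, in place of 14243, and detection on 1 array alone was not counted. Genes at least 2-fold higher were 4 of 15 as reported and 11 of 15 on the spike-in scale, and 7 of 15 at 1.5-fold. They were 14 of 33 with no dim-probe filter, 11 of 25 with the weaker flag and 1 of 6 among the brighter probes. DAZL, FGFR3, ID4 and NANOS1 had no value among the brighter probes. Over all genes the shares higher were 7.32% as reported, 38.8% on the spike-in scale and 15% at 1.5-fold. They were 9.68% with no filter, 10% with the weaker flag and 4.96% among the brighter probes. Genes at least 2-fold lower were 2 of 15 as reported and 1 of 15 on the spike-in scale. They were 1 of 6 among the brighter probes and 1 of 15 at 4-fold. The shares of all genes lower were 6.32%, 1.01%, 6.25% and 0.857% in the same order. The median difference was 0.31 as reported, 1.22 on the spike-in scale, 0.88 with no filter and 0.98 with the weaker flag. The spike-in scale raised the median of all genes by 0.90 and left 144 of them at least 2-fold lower against 5524 higher, in place of 900 and 1042, so upward calls made up 97.5%, as opposed to 53.7% as reported. With the median as the scale, differences were 0.16 lower and the calls were 785 higher and 1305 lower, of which 37.6% were upward. Upward calls were 66.1% at 4-fold. Over all genes, normexp correction gave 553 higher and 568 lower. With brighter probes alone these were 428 and 539. With no filter they were 2081 and 1485, and with the weaker flag 1710 and 1363. At 1.5-fold there were 2142 and 2392, and at 4-fold 238 and 122. Bounds of at least 2-fold on the pubertal array alone were 7 as reported, 3 with normexp correction, 5 with median scaling or quantile normalization and 9 on the spike-in scale. The bound of ELAVL2 was -0.02 with median scaling, which is no bound. The bound of DPPA4, the 1 gene detected on the infant array alone, was -0.002 with loess normalization and -0.83 on the spike-in scale. These are no bounds either. Bounds of genes of other lists were not recomputed, and bounds over all gene names were not counted. No paired analysis was possible because each group had 1 array. Signals near the floor, which hold most genes detected on 1 array, cannot show how large a difference is.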
